A study of Mus musculus with 12 samples.

Results

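The proximal stretch of mouse chromosome 13, below 70 Mb in mm10, held 922 of the 44242 regions of open chromatin found across 12 ATAC-seq libraries of sorted medulloblastoma cells. Overlapping peaks of all 12 lists were merged into regions, and a region belonged to the stretch when its midpoint lay below 70 Mb. The other 773 regions of chromosome 13 are the reference for it. Its members were selected on the number and rank of their peaks, which were known to differ between SOX2+ and SOX2- libraries. How often its regions were listed and how they ranked in each group is therefore described, with no test drawn from it. ATAC-seq marks accessible DNA by the insertion of sequencing adapters with a transposase. The groups were SOX2+ cells (4 libraries), SOX2- cells (4), SOX2+/MKI67+ cells (2) and SOX2+/MKI67- cells (2), all from untreated sonic hedgehog (SHH) medulloblastomas of Ptch1+/- mice. Cells were sorted by eGFP for SOX2 and by RFP for MKI67, a marker of cycling cells. Ages, the promoters behind both reporters, and whether replicates came from separate animals are not given in the sources used here.

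Ptch1, the gene whose loss of 1 copy is shared by all 4 groups, lies on this stretch. Its protein is the receptor that keeps hedgehog signalling off, and Gli3, a transcription factor of the pathway, and Gas1, a co-receptor, lie there too. The stretch further carries the main cluster of replication-dependent histone genes, and loci of developmental transcription factors such as Sox4, Id4 and Foxc1. Peaks at gene ends mostly mark promoters, which tend to be open in many cell types. Peaks within and between genes include enhancers, which tend to be specific to a cell type.

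Promoter sequences are shown for Ptch1 and for the 6 named genes whose promoter region differed most in how often SOX2+ and SOX2- libraries listed it. Each is the 250 bases before a RefSeq start site (GRCm38.p6), 5′ to 3′ on the gene's strand, with capitals for the bases inside a merged region. The Ptch1 window (chr13:63565736-63565985, minus strand) held none, and the nearest region began 74 bp from it. The windows of Ptpdc1 (chr13:48593392-48593641, minus), Foxc1 (chr13:31806396-31806645, plus), Macroh2a1 (chr13:56135551-56135800, minus), Sncb (chr13:54766596-54766845, minus), Unc5a (chr13:54949161-54949410, plus) and Smad5 (chr13:56702760-56703009, plus) each overlapped a region.
Ptch1: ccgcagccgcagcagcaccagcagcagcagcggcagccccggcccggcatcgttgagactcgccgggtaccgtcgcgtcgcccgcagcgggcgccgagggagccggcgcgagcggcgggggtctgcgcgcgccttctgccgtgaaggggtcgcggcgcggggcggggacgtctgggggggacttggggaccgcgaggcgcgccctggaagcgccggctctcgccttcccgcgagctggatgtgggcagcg
Ptpdc1: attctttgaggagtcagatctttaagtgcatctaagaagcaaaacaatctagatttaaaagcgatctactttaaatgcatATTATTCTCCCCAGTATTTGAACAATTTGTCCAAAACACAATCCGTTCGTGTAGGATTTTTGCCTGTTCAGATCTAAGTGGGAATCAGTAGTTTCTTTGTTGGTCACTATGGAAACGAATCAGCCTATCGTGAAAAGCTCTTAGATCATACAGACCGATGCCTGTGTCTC
Foxc1: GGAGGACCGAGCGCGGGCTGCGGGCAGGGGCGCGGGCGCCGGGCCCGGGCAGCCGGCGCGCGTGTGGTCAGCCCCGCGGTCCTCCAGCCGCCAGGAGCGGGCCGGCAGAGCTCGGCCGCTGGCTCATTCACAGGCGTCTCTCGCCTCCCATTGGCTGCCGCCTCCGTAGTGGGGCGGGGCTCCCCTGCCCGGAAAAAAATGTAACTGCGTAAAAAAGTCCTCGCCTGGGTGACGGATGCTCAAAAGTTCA
Macroh2a1: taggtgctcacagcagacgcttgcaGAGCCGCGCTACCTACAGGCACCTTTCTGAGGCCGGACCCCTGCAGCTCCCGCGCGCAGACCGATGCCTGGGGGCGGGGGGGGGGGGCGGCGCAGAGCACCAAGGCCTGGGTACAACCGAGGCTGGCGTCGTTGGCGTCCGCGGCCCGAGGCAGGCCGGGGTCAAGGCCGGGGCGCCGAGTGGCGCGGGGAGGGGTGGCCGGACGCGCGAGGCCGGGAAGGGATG
Sncb: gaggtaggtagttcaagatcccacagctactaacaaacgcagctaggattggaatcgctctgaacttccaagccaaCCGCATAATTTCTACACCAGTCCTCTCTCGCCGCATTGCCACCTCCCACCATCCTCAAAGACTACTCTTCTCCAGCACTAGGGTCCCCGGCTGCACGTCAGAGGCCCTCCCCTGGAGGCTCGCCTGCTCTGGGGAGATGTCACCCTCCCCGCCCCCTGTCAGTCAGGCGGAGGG
Unc5a: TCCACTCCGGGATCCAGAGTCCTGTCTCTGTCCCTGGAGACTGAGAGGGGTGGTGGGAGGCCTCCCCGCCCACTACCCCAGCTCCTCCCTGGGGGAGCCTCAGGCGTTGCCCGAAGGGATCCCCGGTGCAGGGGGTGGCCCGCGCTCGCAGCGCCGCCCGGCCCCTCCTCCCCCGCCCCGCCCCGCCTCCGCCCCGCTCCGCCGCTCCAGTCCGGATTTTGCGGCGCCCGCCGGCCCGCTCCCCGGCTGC
Smad5: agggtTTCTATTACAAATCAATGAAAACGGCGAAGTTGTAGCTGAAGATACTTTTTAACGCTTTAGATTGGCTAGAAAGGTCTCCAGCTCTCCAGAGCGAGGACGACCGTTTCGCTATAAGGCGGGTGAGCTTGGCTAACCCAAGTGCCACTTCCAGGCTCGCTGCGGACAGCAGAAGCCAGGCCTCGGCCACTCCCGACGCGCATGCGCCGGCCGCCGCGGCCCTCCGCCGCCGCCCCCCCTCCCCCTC

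The Ptpdc1 region was in all 4 SOX2+ lists and in no SOX2- list. Those of Foxc1, Macroh2a1, Sncb and Unc5a were in 3 SOX2+ lists and no SOX2- list, and that of Smad5 in all 4 SOX2+ lists and 1 SOX2- list. In the MKI67-sorted libraries the Foxc1 region was in 1 SOX2+/MKI67+ list and no SOX2+/MKI67- list. The Macroh2a1 region was in 1 SOX2+/MKI67+ list and 2 SOX2+/MKI67- lists. Those of Ptpdc1, Sncb, Unc5a and Smad5 were in all 4. Ptpdc1 encodes a phosphatase, Foxc1 a forkhead transcription factor, Macroh2a1 a histone variant, Sncb beta-synuclein, Unc5a a netrin receptor and Smad5 a transducer of BMP signals. Neither the GLI motif GACCACCCA, the SOX motif AACAATG nor the E-box CAGCTG, read on both strands, occurred in any of the 7 windows. Among 21045 RefSeq promoter windows of this length the motifs occurred in 0.162%, 2.80% and 12.2%. Of 588 such windows on proximal chromosome 13, 297 overlapped a region, and 0.673%, 1.68% and 9.43% of these held the 3 motifs. Over all 588 the shares were 0.680%, 3.23% and 11.6%. The GLI motif was in 2 of the 297 windows and in 4 of the 588. The median GC content was 59.6% in windows that overlapped a region and 46.8% in those that did not. Of the 254 regions at promoters, 160 were listed in more SOX2+ than SOX2- libraries, 15 in fewer and 79 in as many. For the 157 distal regions within 1 kb of a gene end these numbers were 38, 24 and 95, and for all 44242 regions 15756, 15004 and 13482. The stretch was selected on its peaks in these groups, so nothing is read from the count.

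List length sets how many regions a library can show. The lists held 9377 to 25272 peaks in SOX2+ libraries, 7009 to 26206 in SOX2- libraries, 18738 and 24694 in SOX2+/MKI67+ libraries, and 19229 and 17615 in SOX2+/MKI67- libraries. The sequencing depth behind them is unknown, so peaks are given per 10000 peaks of a list. DNA copy number along the chromosome was not measured here. Peaks at 6 marker genes of the oligodendrocyte lineage reached 7.64 to 11.7 per 10000 in SOX2+ libraries, against 0 to 3.82 in SOX2- libraries, where Sox10 and Nkx2-2 were at 0. Those at 5 astrocyte markers reached 2.13 to 6.11 in SOX2+ libraries, against 0 to 3.23 in SOX2- libraries, where Aqp4, Aldh1l1 and S100b were at 0. Those at 8 markers of granule neuron progenitors and neurons reached 1.07 to 9.68 in SOX2+ libraries, with Barhl1 and Nhlh1 at 0, against 9.99 to 16.03 in SOX2- libraries. Those at 6 microglia and macrophage markers stayed between 0.509 and 1.98 in SOX2+ libraries and between 0 and 1.14 in SOX2- libraries, with Csf1r, Cx3cr1 and Aif1 at 0 in both. Those at 4 lymphocyte markers reached 0.791 to 1.19 in SOX2+ libraries, against 0 to 0.922 in SOX2- libraries, all of them at Ptprc, a gene of all white blood cells, with Cd3e and Cd79a at 0 in every library. The part of these differences in the values below was not tested. In bulk libraries, fewer cells with an open site and less opening per cell cannot be told apart.

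More of the open regions of SOX2+ cells than of SOX2- cells lay on proximal chromosome 13. SOX2+ replicates 1 to 4 had 229, 210, 186 and 250 proximal peaks per 10000, against 82.8, 181, 138 and 114 in SOX2- replicates 1 to 4. The groups did not overlap, although SOX2+ replicate 3 and SOX2- replicate 2 lay close together. The means were 219 ± 27.4 in SOX2+ and 129 ± 41.3 in SOX2- libraries (SD, n = 4 each), a ratio of 1.70. In SOX2+/MKI67+ libraries the values were 199 and 207, against 267 and 257 in SOX2+/MKI67- libraries, a ratio of 0.775. All 8 libraries of SOX2+ cells, from both sorts, thus lay above all 4 SOX2- libraries, and the SOX2+/MKI67- libraries lay highest.

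The distal remainder of the chromosome did not follow this order. Distal peaks reached 176 ± 12.9 per 10000 in SOX2+ and 185 ± 3.46 in SOX2- libraries (SD, n = 4 each), with overlapping ranges. They reached 181 and 173 in SOX2+/MKI67+ libraries, against 167 and 160 in SOX2+/MKI67- libraries. As a share of all chromosome 13 peaks, the proximal ones made up 57.8%, 53.1%, 49.8% and 60.7% in SOX2+ replicates 1 to 4. In SOX2- replicates 1 to 4 they made up 31.2%, 49.9%, 42.4% and 37.9%. On this scale SOX2+ replicate 3 fell just under SOX2- replicate 2, so that the groups touched. The mean difference was 15.0 percentage points, and 11.96 to 18.2 with any library left out.

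**Figure D1:**
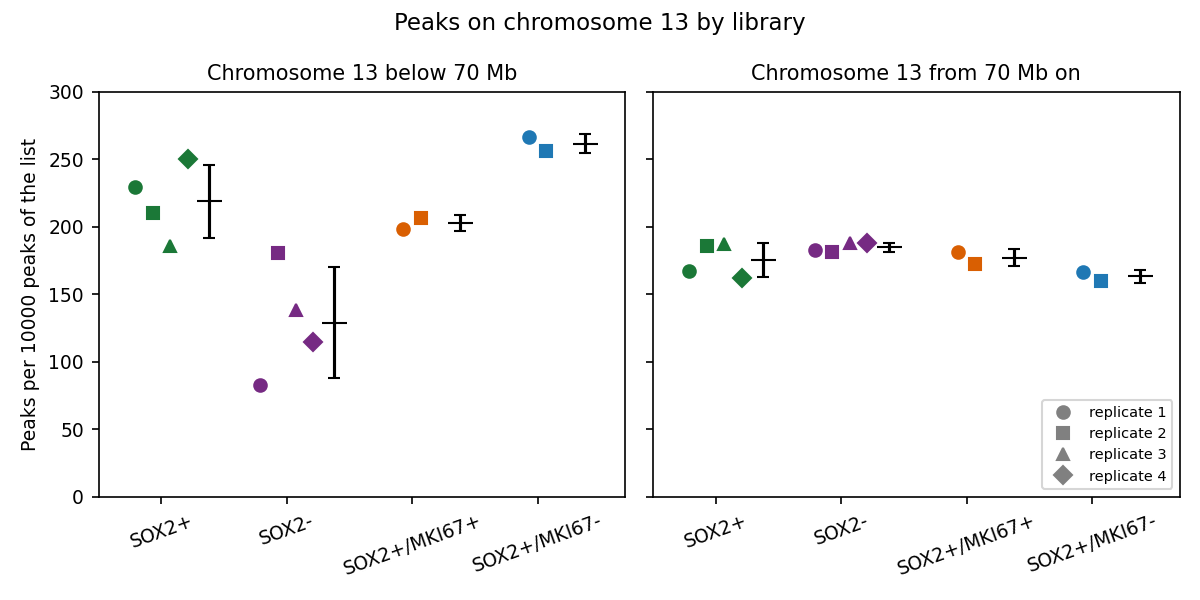
Peaks per 10000 peaks of a list on chromosome 13 below 70 Mb (left) and from 70 Mb on (right), for each library (coloured symbols by replicate number), with the group mean and SD in black. Below 70 Mb the SOX2+ libraries sit between 186 and 250 and the SOX2- libraries between 82.8 and 181, while from 70 Mb on all 12 libraries sit between 160 and 188.

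With each list cut to its strongest 7009 peaks, 150, 148, 127 and 152 proximal peaks were left in SOX2+ replicates 1 to 4, against 58, 120, 87 and 65 in SOX2- replicates 1 to 4. In SOX2+/MKI67+ libraries 136 and 139 were left, against 177 and 152 in SOX2+/MKI67- libraries. Distal peaks at this length numbered 136 ± 13.03 in SOX2+ and 135 ± 7.41 in SOX2- libraries (SD, n = 4 each). Equal list lengths therefore left the order of the groups as it was.

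Along the stretch, the excess in SOX2+ cells was present in each of the 7 bins of 10 Mb and widest in the middle ones. SOX2+ and SOX2- libraries averaged 17.1 ± 2.46 and 13.4 ± 3.44 peaks per 10000 in the bin from 0 to 10 Mb (SD, n = 4 each), a ratio of 1.28. From 30 to 40 Mb they averaged 30.7 ± 4.55 and 15.3 ± 5.21, a ratio of 2.01. From 50 to 60 Mb, where SOX2+ libraries also varied most, they averaged 43.4 ± 15.0 and 18.5 ± 5.99, a ratio of 2.35. Libraries of the 2 groups did not overlap in the bins from 30 to 40, 40 to 50 and 60 to 70 Mb. In the 5 bins from 70 to 120 Mb the ratios ran from 0.915 to 1.03. Between SOX2+/MKI67+ and SOX2+/MKI67- libraries the ratios ran from 0.654 to 0.848 in the 7 proximal bins, and from 0.980 to 1.24 in the 5 distal ones.

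**Figure D2:**
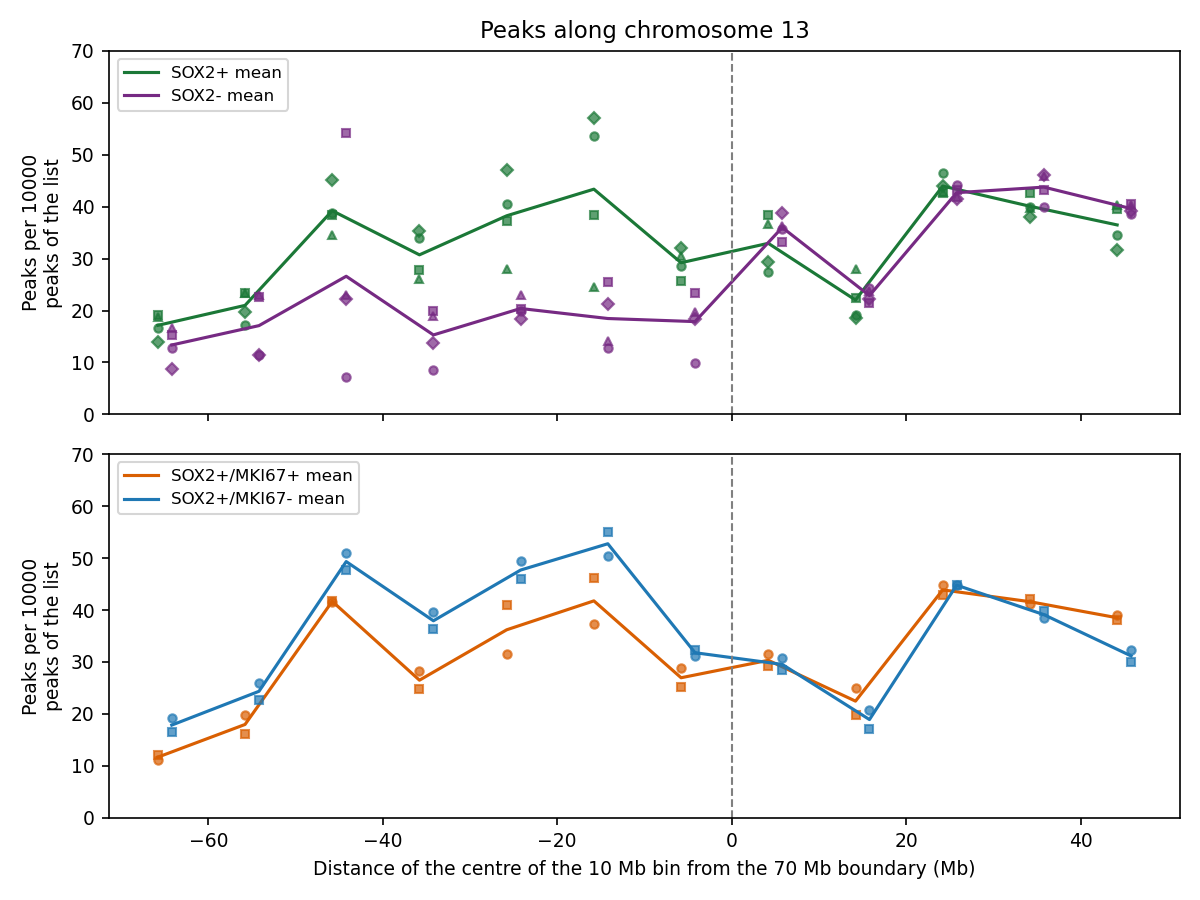
Peaks per 10000 peaks of a list in bins of 10 Mb along chromosome 13, by distance of the bin's centre from the 70 Mb boundary (dashed line), with a line for each group mean and a symbol for each library. SOX2+ means lie above SOX2- means in all 7 bins left of the boundary, where SOX2+/MKI67+ means lie below SOX2+/MKI67- means.

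Set against the other chromosomes cut at the same length, proximal chromosome 13 lay outside the range of the others in both comparisons. Over the other 38 stretches the ratio of SOX2+ to SOX2- means ran from 0.930, on chromosome 4 from 70 Mb on, to 1.11, on chromosome 19, against 1.70 here. The ratio of SOX2+/MKI67+ to SOX2+/MKI67- means ran from 0.914, on chromosome 19, to 1.15, against 0.775 here. These ratios share libraries, and the stretch was picked for this value, so they carry no test.

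**Figure D3:**
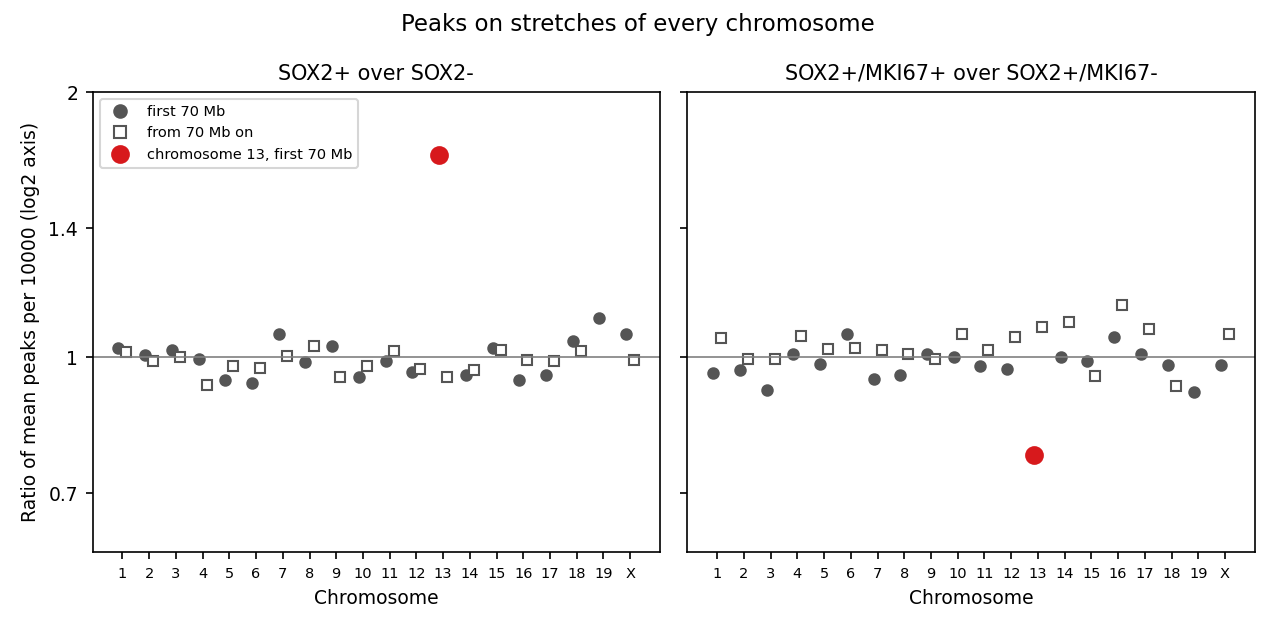
Ratio of mean peaks per 10000 on a log2 axis for the first 70 Mb (filled) and the rest (open) of each chromosome, SOX2+ over SOX2- (left) and SOX2+/MKI67+ over SOX2+/MKI67- (right). Proximal chromosome 13 (red) lies at 1.70 and 0.775, outside the range of the other 38 stretches.

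The stretch held a larger share of gene-end regions than the distal chromosome. Of the 922, 297 (32.2%) lay within 1 kb of a gene end, 269 (29.2%) elsewhere inside a gene and 356 (38.6%) between genes. Of the 773 distal regions 20.3% lay at gene ends, and of all 44242 regions 27.3%. The median width was 410 bp below and 408 bp above 70 Mb. Fewer proximal regions were listed in all 12 libraries, 50 of the 922 (5.42%), against 100 of the 773 distal regions (12.9%) and 12.2% of all regions. The shortest list, SOX2- replicate 1, limits these shares. It held 6.18% of the proximal, 16.2% of the distal and 15.5% of all regions. Another 286 proximal regions (31.0%) were listed in 1 library, close to the 29.4% of distal and 30.4% of all regions. Among them were 109 in SOX2- replicate 2 and 71 in SOX2+ replicate 4.

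The excess in SOX2+ cells was present at gene ends and, as a ratio, larger away from them. An average SOX2+ library listed 65.8% of the 297 gene-end regions, against 44.5% in an average SOX2- library. Inside genes the shares were 34.9% in SOX2+ and 16.3% in SOX2- libraries, and between genes 27.8% in SOX2+ and 15.8% in SOX2- libraries. In distal gene-end regions the shares were 78.5% in SOX2+ and 75.0% in SOX2- libraries. SOX2+/MKI67+ libraries listed 77.8% of the proximal gene-end regions, against 74.7% in SOX2+/MKI67- libraries. Between genes the shares were 28.8% in SOX2+/MKI67+ and 37.4% in SOX2+/MKI67- libraries. Per 10000 peaks of a list, proximal peaks at gene ends were 109.6 ± 9.53 in SOX2+/MKI67+ and 123 ± 6.11 in SOX2+/MKI67- libraries (SD, n = 2 each), a ratio of 0.888. Away from gene ends they were 93.1 ± 15.5 in SOX2+/MKI67+ and 138 ± 13.3 in SOX2+/MKI67- libraries, a ratio of 0.673. On this scale the SOX2+/MKI67+ and SOX2+/MKI67- libraries did not overlap in either class. SOX2+ and SOX2- libraries overlapped in both. At gene ends they had 94.7 to 143 in SOX2+ and 69.9 to 98.7 in SOX2- libraries, a ratio of means of 1.46. Away from gene ends they had 67.2 to 143 in SOX2+ and 12.8 to 100.0 in SOX2- libraries, a ratio of means of 2.08.

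Of the 922 regions, 524 were listed in more SOX2+ than SOX2- libraries, 175 in fewer and 223 in as many. Of the distal regions, 259 were listed in more, 269 in fewer and 245 in as many. Over all 44242 regions these numbers were 15756, 15004 and 13482. Regions found in 3 or 4 SOX2+ lists and no SOX2- list numbered 53, or 5.75% of the stretch, beside 4.1% of all regions. Of these 53, 40 lay away from gene ends and 32 were listed in all 4 MKI67-sorted libraries. The 40 and the 32 have no counterpart over all regions here, so nothing is read from them. The reverse pattern, 3 or 4 SOX2- lists and no SOX2+ list, held for 1 region, or 0.108%, beside 1.54% of all regions. Distal chromosome 13 had 28 regions of the first kind and 18 of the second. Leaving out a library loosens both rules, since 1 fewer list is then required or excluded. On these looser rules, leaving out SOX2+ replicate 2, SOX2+ replicate 3 or SOX2- replicate 2 raised the first count to 139, 115 or 92. Leaving out SOX2- replicate 1, 3 or 4 raised the second to 21, 17 or 5, and leaving out SOX2+ replicate 3 to 5.

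Rank within a list was read as a percentile of the authors' -log10 q, where 100 is the strongest peak. Over the 50 proximal regions listed in all 12 libraries, the mean percentile in SOX2+ libraries was 84.2 ± 5.94, against 69.9 ± 16.6 in SOX2- libraries (SD, n = 4 each). Over the 100 such distal regions it was 75.3 ± 10.6 in SOX2+ and 74.3 ± 13.1 in SOX2- libraries. The proximal mean minus the distal mean was 11.3, 15.6, 0.807 and 7.63 points in SOX2+ replicates 1 to 4, against -9.38, 1.01, -0.695 and -8.31 points in SOX2- replicates 1 to 4. SOX2+ replicate 3 lay within the range of the SOX2- libraries, and the other SOX2+ libraries above it. Of the 50 regions, 49 ranked higher on average in SOX2+ than in SOX2- libraries, against 57 of the 100 distal and 3272 of all 5397 regions listed in every library. The SOX2- averages include replicate 1, the shortest list, with a mean of 46.7 over the 50, against 86.3, 73.0 and 73.8 in replicates 2 to 4. The count of 49 was not recomputed without it. The group difference in proximal minus distal mean, 13.2 points, was 10.9 to 15.8 with any library left out. It was 4.29 where peaks were ranked by fold instead.

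**Figure D4:**
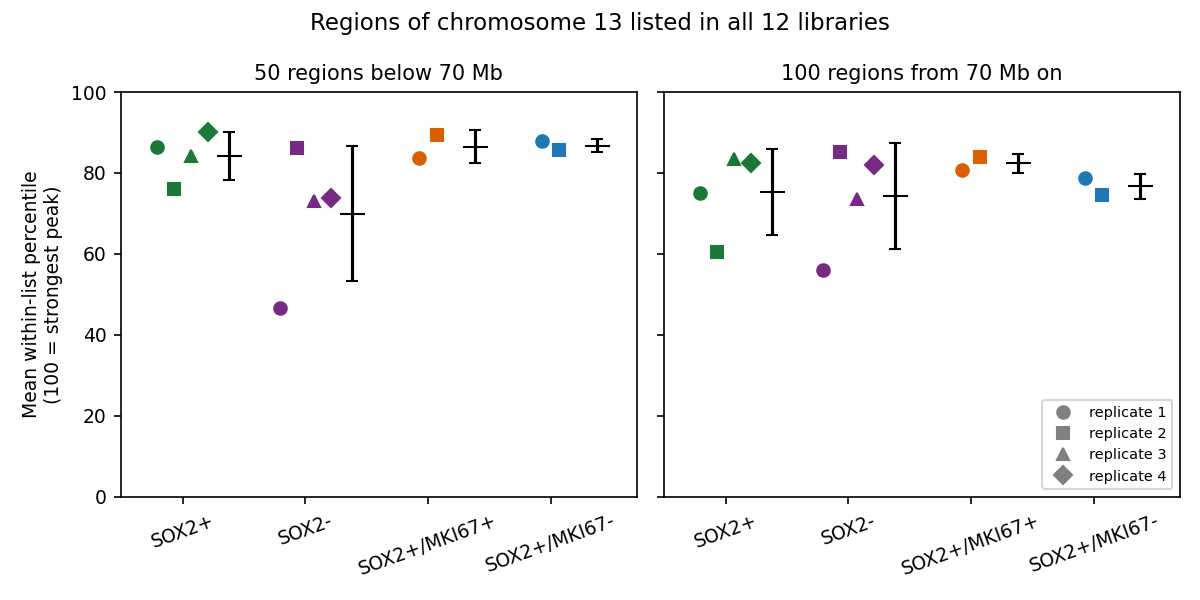
Mean within-list percentile of the regions of chromosome 13 listed in all 12 libraries, below 70 Mb (left, 50 regions) and from 70 Mb on (right, 100 regions), per library, with group mean and SD in black. Below 70 Mb the SOX2+ mean is 84.2 and the SOX2- mean 69.9, and from 70 Mb on they are 75.3 and 74.3.

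The largest mean differences among these 50 were at the gene ends of Gfod1, with percentiles of 87.3 in SOX2+ and 52.5 in SOX2- libraries, and of Cenpp, a centromere protein, with 94.2 and 68.1. At Psma2, a proteasome subunit, the percentile averaged 96.2 in SOX2+ and 96.3 in SOX2- libraries. It was the lone region of the 50 whose average was not higher in SOX2+ libraries. The median percentile over all proximal peaks of a list showed less. Minus the distal median it was -3.53 ± 4.01 points in SOX2+ and -6.68 ± 8.10 points in SOX2- libraries (SD, n = 4 each), a difference of 3.15 that was -0.655 without SOX2- replicate 1 and 8.66 with equal peak numbers.

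Across all 30785 regions listed in at least 2 libraries, percentiles were fitted with limma, with 0 for no peak. At an adjusted p under 0.05, 30 of the 636 proximal regions tested were higher in SOX2+ libraries, beside 2.3% of all regions, and 1 was lower, beside 0.997%. These counts, and the calls at named loci below, come from the contrast that chose the stretch, and nothing is read from them. Without SOX2- replicate 3, 52 were higher, without SOX2+ replicate 1, 15, and without either SOX2+/MKI67- replicate 2 or SOX2+/MKI67+ replicate 1, 17. Without SOX2+/MKI67- replicate 1 it was 19. The 1 lower region became 8 without SOX2- replicate 3 and 9 without SOX2+ replicate 2, and 0 with SOX2- replicate 2, SOX2+ replicate 1, 3 or 4 or any MKI67-sorted library left out. The median fitted difference was 9.01 points over the 636, against -0.787 over 546 distal and 0.281 over all regions. In 31 of the 922 regions every SOX2+ library ranked above every SOX2- library, beside 2.42% of all regions, and in 0 below, beside 0.416%.

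The region with the smallest p lay 6.96 kb from Mcur1 (chr13:43531033-43531857), a regulator of mitochondrial calcium uptake. Its percentiles were 85.6, 67.4, 87.9 and 95.2 in SOX2+ replicates 1 to 4, and SOX2- replicate 2 was the sole SOX2- library to list it, at 15.3. It ranked at 76.4 and 88.3 in SOX2+/MKI67+ and at 90.3 and 86.3 in SOX2+/MKI67- libraries. The fitted difference between SOX2+ and SOX2- libraries was 78.5 ± 7.30 points (SE). A region with no gene within 100 kb (chr13:4771246-4771883) had percentiles of 75.3, 88.9, 96.1 and 76.9 in SOX2+ libraries, and in SOX2- libraries one of 9.08 in replicate 2 alone. Another (chr13:26575793-26576570) had 78.5, 57.8, 84.2 and 91.0 in SOX2+ libraries and was in no SOX2- list. All 4 MKI67-sorted libraries listed both of them.

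Inside Dapk1, a death-associated kinase, a region (chr13:60614196-60614703) ranked at 74.2, 62.0, 82.8 and 92.5 in SOX2+ libraries and was in no SOX2- list. Inside Gmds, an enzyme of GDP-fucose synthesis, a region (chr13:31955116-31955623) ranked at 63.1, 83.8, 55.6 and 84.2 in SOX2+ libraries and was likewise in no SOX2- list. Inside Nid1, which encodes the basement membrane protein nidogen, a region (chr13:13480935-13481450) ranked at 69.5, 74.96, 94.2 and 94.6 in SOX2+ libraries, against 45.7 and 11.98 in SOX2- replicates 2 and 4. These regions lay above every SOX2- library in each SOX2+ library. Near Psmg4, a proteasome assembly chaperone, a region (chr13:34148637-34149456) ranked at 76.9, 80.3, 64.2 and 97.9 in SOX2+ libraries, against 37.7 and 1.68 in SOX2- replicates 2 and 4. A gene-end region of Ptpdc1 (chr13:48625243-48625968) ranked at 89.1, 54.6, 79.8 and 89.4 in SOX2+ libraries, against 45.2, 33.1 and 34.7 in SOX2- replicates 2 to 4.

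The 7 regions of this paragraph, with lower fitted ranks in SOX2+ than in SOX2- libraries, each rested on 2 SOX2- lists. A region inside Cdkal1 (chr13:29759635-29760258) was in no SOX2+ list, ranked at 87.0 and 74.3 in SOX2- replicates 2 and 4, and ranked at 34.0 in SOX2+/MKI67+ replicate 2. The next 6 by p among those described, near Hsd17b3, Rpp40 and Cxcl14, inside Adarb2, and 2 with no gene within 100 kb, were each listed in SOX2- replicates 2 and 4. In these 7 regions the fitted difference did not pass.

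**Figure D5:**
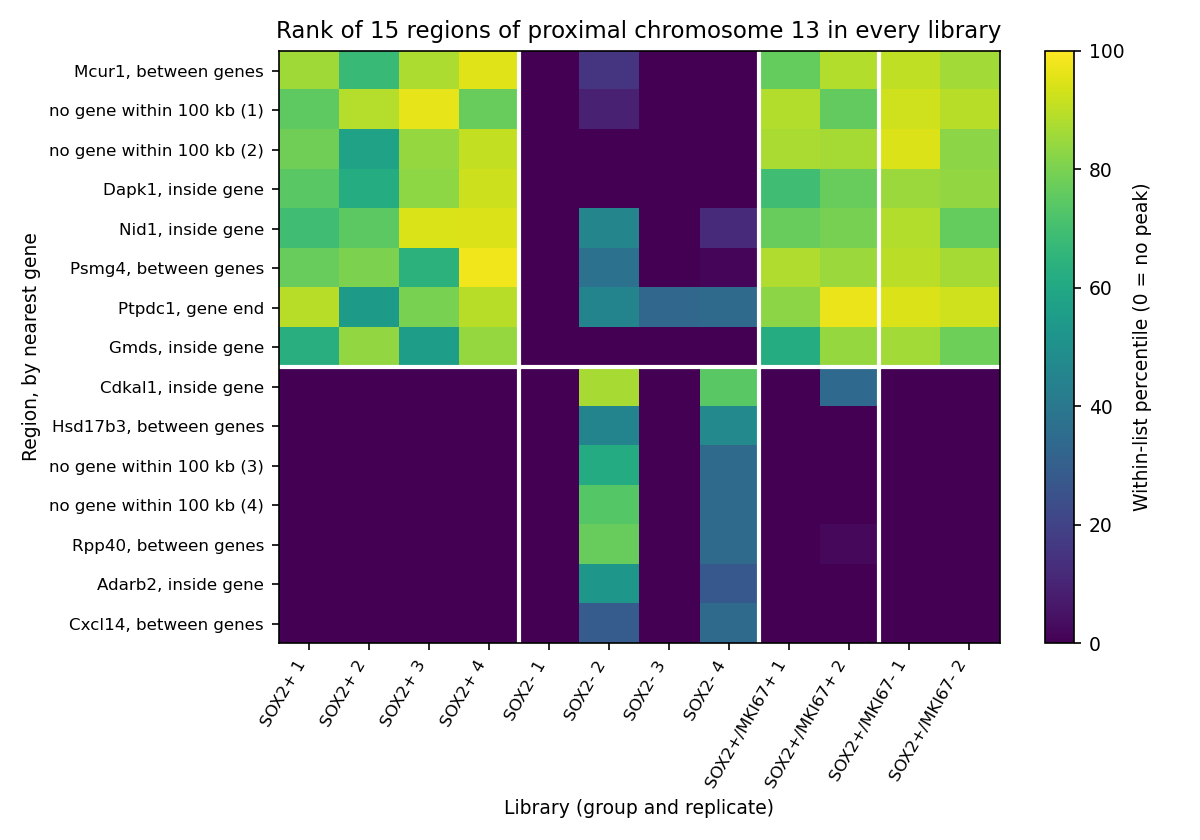
Within-list percentile (colour, 0 where a list has no peak) of 15 proximal regions in every library, the 8 with the smallest limma p among those higher in SOX2+ than in SOX2- libraries and 7 lower ones that did not pass. The upper 8 rank above 50 in all SOX2+ libraries and at 45.7 or below in SOX2- libraries, and the lower 7 are in no SOX2+ list.

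At the hedgehog genes Ptch1 and Gli3 the peak numbers of SOX2+ and SOX2- libraries overlapped. The 7 regions at Ptch1 held 4, 2, 3 and 5 peaks in SOX2+ replicates 1 to 4, against 0, 3, 2 and 2 in SOX2- replicates 1 to 4. They held 2 and 4 in SOX2+/MKI67+ libraries, against 1 and 2 in SOX2+/MKI67- libraries. The Ptch1 region listed most often (chr13:63567774-63568311, inside the gene) was in 11 of 12 lists and missing from SOX2- replicate 1. It ranked at 66.6, 42.2, 53.0 and 68.2 in SOX2+ replicates 1 to 4, against 78.9, 55.6 and 63.7 in SOX2- replicates 2 to 4. The groups overlapped there. The region beside the promoter window printed above (chr13:63566059-63566524) was in 3 SOX2+ and 3 SOX2- lists, in both SOX2+/MKI67+ and in neither SOX2+/MKI67- list. The gene end of Gas1 (chr13:60177232-60177915) ranked at 85.9, 54.7, 86.6 and 81.0 in SOX2+ libraries, against 79.5, 37.1 and 68.8 in SOX2- replicates 2 to 4, and was absent from SOX2- replicate 1. At Gli3, 9 regions held 1, 1, 6 and 3 peaks in SOX2+ libraries and 0, 6, 2 and 1 in SOX2- libraries. Of the 13 hedgehog regions tested 1, at Gas1, was higher in SOX2+ libraries, beside 2.3% of all regions, and 0 lower, beside 0.997%. The median difference over the 13 was 7.07 points.

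The BMP, TGF-beta and Wnt loci were listed least in SOX2- cells. Their 10 regions, at Smad5, the ligand genes Bmp6 and Inhba, Tgfbi and the Wnt receptor gene Ror2, held 5, 1, 2 and 8 peaks in SOX2+ replicates 1 to 4, against 0, 1, 0 and 1 in SOX2- replicates 1 to 4. They held 1 and 5 in SOX2+/MKI67+ libraries, against 6 and 7 in SOX2+/MKI67- libraries. SOX2+ libraries varied widely, and replicate 2 matched the highest SOX2- libraries. Of 7 regions tested 0 were called higher, beside 2.3% of all regions, and 0 lower, beside 0.997%. The median difference was 10.6 points, and the difference was positive in all 7.

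Of 14 developmental transcription factors, 12 had a region, and Pitx1 and Irf4 had none. Their 36 regions held 18, 7, 11 and 24 peaks in SOX2+ replicates 1 to 4, against 0, 14, 6 and 7 in SOX2- replicates 1 to 4. They held 11 and 14 in SOX2+/MKI67+ libraries, against 18 and 15 in SOX2+/MKI67- libraries. The median difference over the 21 tested was 17.1 points. Of these, 2 were higher in SOX2+ libraries, beside 2.3% of all regions, and 0 lower, beside 0.997%. Both lay at Id4, an inhibitor of basic helix-loop-helix factors, at its gene end (chr13:48260650-48261224) and 33.1 kb away (chr13:48227728-48228216). Its 3 regions held 2, 2, 2 and 3 peaks in SOX2+ and 0, 2, 1 and 2 in SOX2- libraries. Foxc1, active in meninges and mesenchyme, had 5 regions, with 2, 0, 2 and 4 peaks in SOX2+ libraries and 0 in all SOX2- libraries. Rreb1, a zinc finger factor, had 5 regions, with 2, 0, 1 and 4 peaks in SOX2+ and 0, 1, 1 and 1 in SOX2- libraries. Neurog1, a proneural factor, had 3, with 3, 0, 0 and 2 peaks in SOX2+ libraries and 0 in all SOX2- libraries. Hivep1 had 3, with 1, 1, 1 and 4 peaks in SOX2+ and 0, 1, 1 and 1 in SOX2- libraries. At Sox4, a factor of neuronal progenitors, the order differed, with 3, 2, 2 and 2 peaks in SOX2+ and 0, 8, 2 and 2 in SOX2- libraries. Of its 9 regions, 5 were in the list of SOX2- replicate 2 alone.

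All 13 chromatin and cell cycle genes had a region, 35 in total. Of 24 tested, 2 were higher in SOX2+ libraries, beside 2.3% of all regions, and 0 lower, beside 0.997%. The median difference over the 24 was 13.5 points. The 2 higher ones lay inside Jarid2, a cofactor of Polycomb repression (chr13:44907626-44908295), and at the gene end of Uimc1, a DNA repair gene (chr13:55099848-55100504). The Jarid2 region ranked at 80.8, 65.3, 77.4 and 88.7 in SOX2+ libraries, against 62.9 and 59.7 in SOX2- replicates 2 and 4. The 10 Jarid2 regions held 4, 2, 2 and 8 peaks in SOX2+ and 1, 3, 1 and 2 in SOX2- libraries. E2f3, a cell cycle transcription factor, held 1, 1, 2 and 2 peaks in SOX2+ and 1, 3, 1 and 1 in SOX2- libraries. Gadd45g, a stress response gene, held 1, 1, 0 and 3 in SOX2+ and 0, 3, 0 and 1 in SOX2- libraries. E2f3 and Gadd45g thus overlapped between the groups, as did Cks2, a cell cycle kinase subunit with 1 peak in every library.

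The 19 neuronal and glial genes held 86 regions, listed at 37.5% in SOX2+ and 15.99% in SOX2- libraries, and at 46.5% in SOX2+/MKI67+ and 49.4% in SOX2+/MKI67- libraries. Of 57 tested, 1, inside Dapk1, was higher in SOX2+ libraries, beside 2.3% of all regions, and 0 lower, beside 0.997%. The median difference over the 57 was 13.2 points, and the difference was positive in 45. Ntrk2, the BDNF receptor of neurons and astrocytes, had 5, 1, 3 and 8 peaks over its 8 regions in SOX2+ replicates 1 to 4, against 0, 1, 0 and 0 in SOX2- replicates 1 to 4. It had 5 and 7 in SOX2+/MKI67+ and 4 and 6 in SOX2+/MKI67- libraries. Phactr1, an actin regulator, had 3, 0, 1 and 6 peaks over 8 regions in SOX2+ and 0, 1, 0 and 0 in SOX2- libraries. Elmo1, an adaptor in engulfment and migration, had the most regions, 15, with 8, 1, 6 and 9 peaks in SOX2+ and 0, 6, 1 and 2 in SOX2- libraries. Amph and Cplx2, genes of synaptic vesicles, had 9 and 7 regions. Amph held 2, 2, 6 and 5 peaks in SOX2+ and 0, 5, 1 and 1 in SOX2- libraries, and Cplx2 held 3, 1, 2 and 7 in SOX2+ and 0, 4, 1 and 1 in SOX2- libraries. At each of these 5 genes SOX2- replicate 2 had as many peaks as at least 1 SOX2+ library. Nrn1, an extracellular neuronal protein, ran the other way, with 0, 0, 1 and 0 peaks in SOX2+ and 0, 2, 2 and 1 in SOX2- libraries.

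Of 6 housekeeping genes 5 had a region, and Hnrnpk had none by the nearest-gene rule. Their 9 regions held 5, 3, 3 and 7 peaks in SOX2+ and 1, 5, 2 and 7 in SOX2- libraries, with a median difference of 6.25 points. By limma 0 were called higher, beside 2.3% of all regions, and 0 lower, beside 0.997%. Agtpbp1, Rpp40, Ctsl, Isca1 and Ranbp9 each had between 0 and 2 peaks in every library, so that their groups overlapped.

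The histone cluster was nearer to balance in the SOX2 comparison. Of its 53 genes 38 had a region, 49 regions in total, and 43 were tested. Their median difference was 2.07 points, with 23 positive, against 9.01 over all 636. The region at H2ac6 (chr13:23683816-23684303) was the 1 called higher in SOX2+ libraries, beside 2.3% of all regions, and 0 were lower, beside 0.997%. The cluster held 18, 15, 23 and 38 peaks in SOX2+ replicates 1 to 4, against 1, 41, 11 and 25 in SOX2- replicates 1 to 4. Per 10000 peaks of a list these were 13.4 ± 2.55 in SOX2+ and 9.32 ± 5.99 in SOX2- libraries (SD, n = 4 each), with the groups overlapping. SOX2+/MKI67+ libraries held 29 and 43 peaks, against 30 and 31 in SOX2+/MKI67- libraries, or 16.4 ± 1.37 and 16.6 ± 1.41 per 10000 (SD, n = 2 each). Histone genes are near-identical copies, and how the authors treated reads that map to several of them is not given in the sources used here, so values of single histone genes are uncertain.

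Within SOX2+ cells, the cycling fraction had fewer proximal peaks per 10000 peaks of a list. The peak numbers themselves overlapped, with 372 and 511 in SOX2+/MKI67+ and 513 and 452 in SOX2+/MKI67- libraries. Regions listed in 2 of 2 SOX2+/MKI67+ and 0 of 2 SOX2+/MKI67- libraries numbered 12, or 1.30%, beside 4.03% of all regions. Regions with the reverse pattern numbered 27, or 2.93%, beside 0.972% of all regions, and 22 of these 27 were in no SOX2- list. The 22 has no counterpart over all regions here, and the stretch was selected on its peaks in SOX2+ and SOX2- libraries, so nothing is read from it. On distal chromosome 13 the counts of the 2 patterns were 44 and 7. Leaving out a library loosens these rules too, as 1 list is then enough or 1 fewer is excluded. The 12 became 70 without SOX2+/MKI67+ replicate 1, 23 without SOX2+/MKI67+ replicate 2, 38 without SOX2+/MKI67- replicate 1 and 27 without SOX2+/MKI67- replicate 2. The 27 became 61 without SOX2+/MKI67- replicate 1, 102 without SOX2+/MKI67- replicate 2 and 77 without SOX2+/MKI67+ replicate 2.

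By limma 0 of the 636 regions were called in either direction between SOX2+/MKI67+ and SOX2+/MKI67- libraries, beside 0% of all 30785. At an unadjusted p under 0.05, 8 were higher and 35 lower, against 904 and 544 over all regions. The 0 became 4 higher without SOX2+/MKI67+ replicate 1 and 4 lower without SOX2+/MKI67- replicate 2. The smallest p belonged to a region 58.3 kb from Id4 (chr13:48324123-48324510), in no SOX2+/MKI67+ list and at 59.6 and 39.5 in SOX2+/MKI67- libraries. Regions inside Carmil1, an actin capping regulator (chr13:24268391-24268656 and chr13:24223718-24224111), followed the same pattern. At the gene end of Habp4, an RNA-binding protein (chr13:64161490-64162230), the percentiles were 74.3 and 82.1 in SOX2+/MKI67+ and 95.6 and 95.5 in SOX2+/MKI67- libraries. In the other direction, the gene end of H2ac4 (chr13:23750949-23751216) ranked at 36.0 and 42.3 in SOX2+/MKI67+ libraries and was in no SOX2+/MKI67- list. A region 95.2 kb from Ly86 (chr13:37514013-37514548) ranked at 57.6 and 63.5 in SOX2+/MKI67+ and at 5.24 and 26.6 in SOX2+/MKI67- libraries. None of these regions passed the adjusted threshold.

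Rank gave no settled order between these 2 groups. Over the 50 regions listed in all 12 libraries, the mean percentile minus that of the distal 100 was 3.01 and 5.37 points in SOX2+/MKI67+ libraries, against 9.04 and 11.04 in SOX2+/MKI67- libraries. Over all peaks the median gap was -1.42 and 4.80 points in SOX2+/MKI67+ libraries, against -8.59 and -9.36 in SOX2+/MKI67- libraries, the opposite order. With equal peak numbers the difference in the median gap changed sign.

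At the boundary, the last regions inside (chr13:69987308-69987529 and chr13:69991426-69991625) were in the list of SOX2+ replicate 3 alone, at percentiles of 34.6 and 0.899. The next regions outside (chr13:70192084-70192340 and chr13:70192723-70192927) were in the list of SOX2- replicate 2 alone, at 59.0 and 24.2.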

How the data were processed

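Peak lists of 12 ATAC-seq libraries were analysed as deposited. Each reaction used 35000 to 50000 cells and gave single-end reads of 50 bp, per the labels' protocols. The submitters' processing notes name mm10, Bowtie2 and MACS2, while versions, duplicate handling and any shift for transposase insertion are not given in these sources. The lists, made by the authors per library, give each peak a fold ratio over background and a -log10 q-value, whose values belong to a single list. Ranks within a list were therefore used, and read depth is unknown.

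Peaks overlapping by 1 bp or more were merged with bedtools 2.31.1 and each region was given the nearest of 21631 protein-coding genes, if within 100 kb (RefSeq, GRCm38.p6, the coordinates of mm10). Within-list percentiles, 0 where no peak was listed, were fitted with limma 3.58.1 (lmFit, then eBayes with a trend) over 12 libraries, 4 groups and log10 list length. The 30785 regions listed in at least 2 libraries entered, and Benjamini-Hochberg adjustment ran over all of them, with a threshold of 0.05. The fit was also run on simulated, normally distributed percentiles with a mostly narrower spread than these data. That setting differs from lists in which many regions have no peak, so its outcome is not used here. P-values measure the spread between these libraries, which may be technical.

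The stretch, its members, the gene lists and the marker lists were chosen with earlier results of these data known. Loci named are those of 7 gene lists, up to 5 per list by number of regions with ties included, and the regions with the smallest p, 8 per direction for SOX2 and 4 for MKI67. A lower region for SOX2 and a lymphocyte marker are not reported here. Promoter windows shown are those of Ptch1 and of the named genes that differed most in listing. Dek, Gmnn and other list members with fewer regions enter the list counts. Alternatives were equal peak numbers (7009 per list), a -log10 q of at least 10, boundaries at 60 and 80 Mb, gene-end regions alone, rank by fold, merging at 100 bp, other limma settings and each library left out.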

Additional observations from a re-analysis of the deposited data

How the results depend on the processing

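Of 220 values recomputed under alternatives, 146 were labelled as kept, 68 as moved and 6 as changed in sign. For a difference of means, kept meant the same direction and a change below the pooled SD of the groups. For a count it meant a similar number. The 146 include limma counts for MKI67 that were 0 and stayed 0, which have no direction or size to keep. The difference in proximal share between SOX2+ and SOX2- libraries (15.0 points) kept its direction and size throughout, as did that in proximal peaks per 10000 (89.8, and 74.4 to 107 with a library left out). The alternatives for peaks per 10000 and for regions listed in all 12 libraries were chosen after seeing the data.

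The SOX2 difference in median gap (3.15) was 8.66 with equal peak numbers, 7.89 at gene ends, -0.693 with the stricter threshold, -0.566 ranked by fold and -0.655 to 5.23 with a library left out. Over the regions listed in every library it was 4.29 ranked by fold, against 13.2, and for MKI67 -0.301, against -5.85 (-7.02 to -4.67 with a library left out). The MKI67 difference in share (-8.15 points) was -4.69 with equal peak numbers, -3.17 with the stricter threshold and -0.497 at gene ends, and -9.30 to -7.01 with a library left out. In peaks per 10000 (-59.0) it was -38.5 with equal numbers, -28.7 with the stricter threshold and -64.1 to -53.9 with a library left out. The MKI67 difference in median gap (10.7) was -5.95, -12.2 and -6.34 with equal numbers, the stricter threshold and gene ends alone, 14.0 ranked by fold, and 7.55 to 13.8 with a library left out.

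The 53 regions exclusive to SOX2+ libraries were 13 at gene ends, 28 with equal numbers and 13 with the stricter threshold (53 to 139 with a library left out). The 1 exclusive to SOX2- libraries became 5 at 80 Mb, and 0 with equal numbers or the stricter threshold (1 to 21). The 12 exclusive to SOX2+/MKI67+ libraries became 4, 1 and 7 at gene ends, with equal numbers and with the stricter threshold (23 to 70), and the 27 exclusive to SOX2+/MKI67- libraries became 1, 16 and 4 (30 to 102). Leaving out a library also loosens these rules.

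The 30 regions higher in SOX2+ libraries by limma were 12 with equal numbers, 0 with the stricter threshold (35 at an unadjusted p under 0.05), 3 at gene ends, 18 without the filter, 10 without list length, 18 with the 2 groups alone and 15 to 52 with a library left out. The 1 lower became 2 at 80 Mb, 0 with equal numbers, the stricter threshold, rank by fold, gene ends, no filter, at least 4 libraries, no list length and the 2 groups alone, and 0 to 9 with a library left out. For MKI67, 1 was lower with equal numbers, and 0 to 4 were called in each direction with a library left out. The cause of these changes was not tested. Fewer proximal regions entered under the shorter lists, 211 with equal numbers and 281 with the stricter threshold, against 636.

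Deviations of same-numbered libraries from their group means had correlations of 0.00118, -0.0678, -0.0207 and 0.0946 for SOX2 and 0.0605 for MKI67. With 2 libraries per MKI67 group, that correlation has the same size for every pair. Whether the numbers mark shared animals or sorts cannot be told from these values, and the main fit used no pairing. With the replicate block 24 regions were higher and 0 lower in SOX2+ libraries, and 0 were called for MKI67. Values read from peak lists are limited by list length: SOX2- replicate 1, with 7009 peaks, listed 57 of the 922 regions, and a region absent from it may lie just under its threshold.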

Other observations

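The window from 28 to 30 Mb, chosen after its values were seen, was carried by a SOX2- library. SOX2+ replicates 1 to 4 listed 6, 3, 8 and 12 of its 41 regions, against 1, 29, 3 and 7 in SOX2- replicates 1 to 4. SOX2+/MKI67+ libraries listed 9 and 11 and SOX2+/MKI67- libraries 10 and 6. Of the 29 in SOX2- replicate 2, 18 were in no other list. The window holds Sox4. In the whole bin from 20 to 30 Mb, SOX2+ libraries had 34.6 to 45.1 peaks per 10000, against 7.13, 54.2, 22.9 and 22.1 in SOX2- replicates 1 to 4.

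In SOX2- replicate 2, the longest list, 23.5% of the proximal regions it held were in no other list, against 15.6% of its distal and 17.9% of all its regions. In SOX2+ replicate 4, the next longest, these shares were 11.4%, 8.17% and 8.84%, and in SOX2- replicate 4 they were 3.33%, 9.18% and 9.34%.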
